A study of Gallus gallus with 24 samples.

Results

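The comparison described here set abdominal fat of a high-growth (HG) chicken line against that of a low-growth (LG) line at 9 wk of age. Its members are the 4 arrays whose titles give 9 wk as the age, replicates 1 to 4, out of 24 arrays in the series. Both lines came from a Bresse-Pile meat-type population that had been bred apart for body weight, and all birds were fed cockerels. The lines were housed separately until 3 wk, when only the LG birds are described as receiving crushed feed pellets, and were reared together afterwards. A spotted cDNA array compared RNA of 1 HG cockerel with RNA of 1 LG cockerel, matched for age, in different dyes. The 9 wk arrays thus held 8 of the 48 birds, and n counts arrays. The remaining 20 arrays held the same comparison at 1, 3, 5, 7 and 11 wk, with 4 arrays at each age. The birds differed by line, and with it by early housing and feed form, and not by a single allele or an experimental treatment. Any gene that differs between the lines is thus measured against the whole of their separate breeding and this early rearing.

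In birds the liver makes most of the fatty acids of the body, and the fat pad takes them up from lipoproteins, esterifies them to triglyceride and stores them in lipid droplets. The last step of triglyceride assembly adds an acyl chain to diacylglycerol, for which oleate and other monounsaturated acyl chains made by stearoyl-CoA desaturase are preferred substrates. PPARG is the transcription factor that drives adipocyte differentiation, and lipases with their partner proteins on the droplet return the stored fat to the blood.

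Values are given as HG over LG on the log2 scale, with the median spot of every array set to 0, so a value of 0 means the same as the median spot and a positive value means higher in HG. A red dye marked the LG bird on arrays 1 and 3 and the HG bird on arrays 2 and 4. The direction of the deposited ratios, red over green, is likely rather than certain: it rests on the ratio that the image software defines and on the dyes in the labels and the methods, and were it reversed, every higher value below would be a lower one. The files hold ratios and no levels, so the fat identity of the samples could not be checked by the level of adipocyte genes, and no gene's level can be set against another's. In a tissue sample, a change in the number of cells of a type and a change in RNA per cell cannot be told apart.

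The 4 arrays gave 18386 to 18418 measured spots, against 17380 to 18529 on the other 20 arrays. The log2 ratios scattered more widely over the spots of the 9 wk arrays, with a median absolute deviation of 0.593 to 0.756, than over those of any other array (0.307 to 0.572). After the fit, the typical residual of a gene was 0.272 at 9 wk and 0.193 to 0.25 at the other ages (median over genes of the root mean square). The test used 1 spread for all ages, so standard errors at 9 wk are estimated from arrays of which most scattered less. Arrays of the same dye orientation correlated at 0.505 and 0.507 over 16895 probes as HG over LG, while arrays of opposite orientation correlated at -0.493 to -0.316. Read as red over green, all 6 pairs were positive, from 0.316 to 0.507. The model carried a dye coefficient, which was larger in size than the 9 wk ratio for 3492 of 6183 genes. With that coefficient removed, arrays of the same orientation still correlated at 0.301 and 0.284 as HG over LG. Arrays of opposite orientation stayed negative, at -0.249 to -0.047, so the split by dye orientation was reduced and not removed. Below, values of single arrays and counts of arrays above or below 0 keep the dye offset unless stated otherwise.

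**Figure D1:**
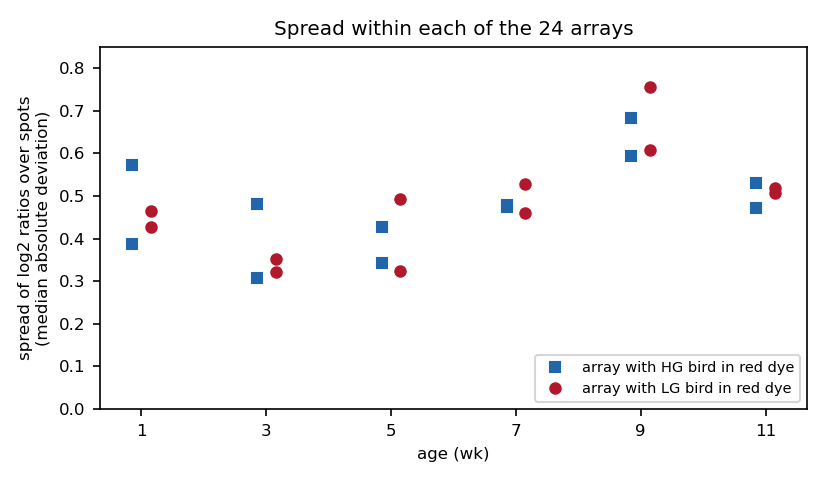
Spread of the log2 ratios over spots (median absolute deviation, vertical axis) on each of the 24 arrays by age in wk (horizontal axis), with squares for arrays that held the HG bird in red and circles for arrays that held the LG bird in red. The 4 arrays of 9 wk, at 0.593 to 0.756, lie above all 20 others, of which the highest is at 0.572.

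At 9 wk, 2 named genes rose in HG fat and none fell. They were DGAT2, the enzyme that adds the last acyl chain to triglyceride, and SCD, the stearoyl-CoA desaturase, which turns saturated into monounsaturated acyl chains. These are 2 of 6183 genes tested, or 0.0323% (limma, Benjamini-Hochberg adjusted p under 0.05), and 462 genes (7.47%) had an unadjusted p under 0.05, of which 293 (4.74%) were higher and 169 lower in HG. Both genes lost their call when every array was scaled to the same spread (adjusted p of 0.599 for DGAT2 and 0.716 for SCD) and when the 4 arrays of 9 wk were fitted alone (0.476 for both). The count of called genes depended on single arrays: it was 18 without array 2 of 9 wk, 4 without array 3, 1 without array 4, 12 without array 1 of 5 wk and 4 without array 2 of 3 wk.

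DGAT2 had log2 ratios of 1.00, 1.07, 0.97 and 0.86 on arrays 1 to 4. All 4 of these values lay within about the same distance from 0 whichever bird carried the red dye. With the dye coefficient of the model removed they were 1.19, 0.89, 1.16 and 0.68, lower on the arrays with the HG bird in red. The fitted ratio was 0.98 (SE 0.13, n = 4 arrays), a 1.97-fold higher signal in HG, with a limma adjusted p of 0.00194. It was measured by 2 probes, which both passed on their own, at 0.87 (SE 0.10) and 1.08 (SE 0.17). The call held without any 1 of the 24 arrays, with adjusted p-values up to 0.0352.

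SCD had log2 ratios of 1.48, 1.37, 1.94 and 1.53 on arrays 1 to 4, so that the lowest array still stood well above 0. Its fitted ratio was 1.58 (SE 0.25, n = 4 arrays), or 2.99-fold, with a limma adjusted p of 0.0168, and it rests on 1 probe. Without array 1, 3 or 4 of 9 wk the ratio stayed between 1.39 and 1.66 and the adjusted p moved to 0.0752, 0.0993 and 0.0931.

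**Figure D2:**
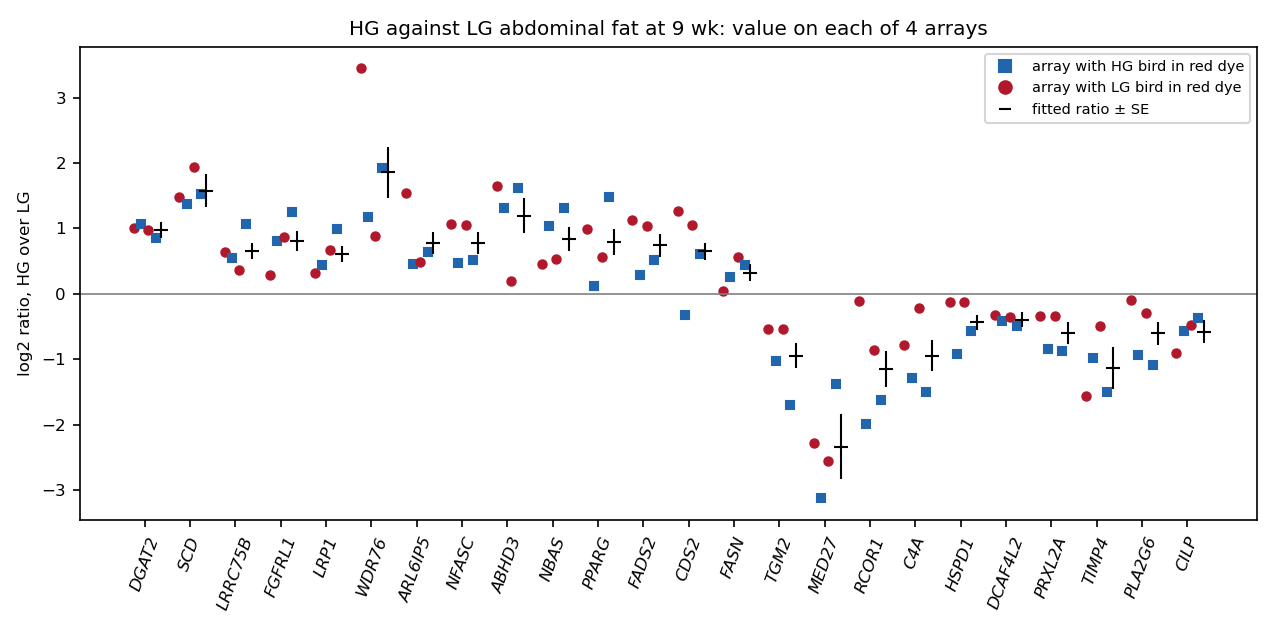
Log2 ratio of HG over LG (vertical axis) of 24 genes on each of the 4 arrays of 9 wk, with squares for the arrays that held the HG bird in red, circles for those that held the LG bird in red, and a black bar for the fitted ratio ± SE. DGAT2 and SCD passed the test, and the other 22 genes are values that did not pass.

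Set beside the other ages, DGAT2 had its highest ratio at 9 wk. From 1 to 11 wk in steps of 2 wk its fitted ratio was 0.16, 0.10, -0.16, 0.70, 0.98 and 0.21, each with an SE of 0.13. On the arrays of 11 wk the values were 0.23, 0.25, 0.13 and 0.25, all below the lowest array of 9 wk. On those of 7 wk they were 0.69, 0.99, 0.59 and 0.55, which overlapped the values of 9 wk. The ratio at 9 wk exceeded the mean of the other 5 ages by 0.77 (SE 0.14), with a limma adjusted p of 0.149, that at 7 wk by 0.27 (SE 0.18, adjusted p = 0.999) and that at 11 wk by 0.76 (SE 0.18, adjusted p = 0.672). None of these differences passed. The first passed when each age had a dye coefficient of its own (adjusted p = 0.0169), an alternative added after the data had been seen.

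SCD had fitted ratios of 0.78, 1.09, 0.85, 1.58, 1.58 and 0.96 at the 6 ages (SE 0.25 each), and it was above 0 on all 20 arrays of the other ages. The values at 7 and 9 wk were the same to the second decimal, with a difference of -0.0049 (SE 0.36). Against the mean of the other ages the 9 wk ratio was higher by 0.53 (SE 0.28, limma adjusted p = 0.874). At 7 wk, the other age at which genes rose, both DGAT2 and SCD were called as well (adjusted p = 0.0191 for each).

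Over all features the 9 wk ratios could not be separated from those of the other ages. Against the mean of the other 5 ages, 0 of 6183 genes (0%) and 0 of 16895 probes passed in limma, with 343 genes (5.55%) and 929 probes (5.5%) at an unadjusted p under 0.05. Against 7 wk and against 11 wk the counts were also 0 genes. The highest moderated t statistics against the other ages belonged to DGAT2, WDR76 and LRRC75B among positive differences, and to PEX16, PLA2G6 and RCOR1 among negative ones, with adjusted p-values from 0.149 for DGAT2 to 0.626. WDR76 had the largest difference of these, 1.98 (SE 0.43).

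**Figure D3:**
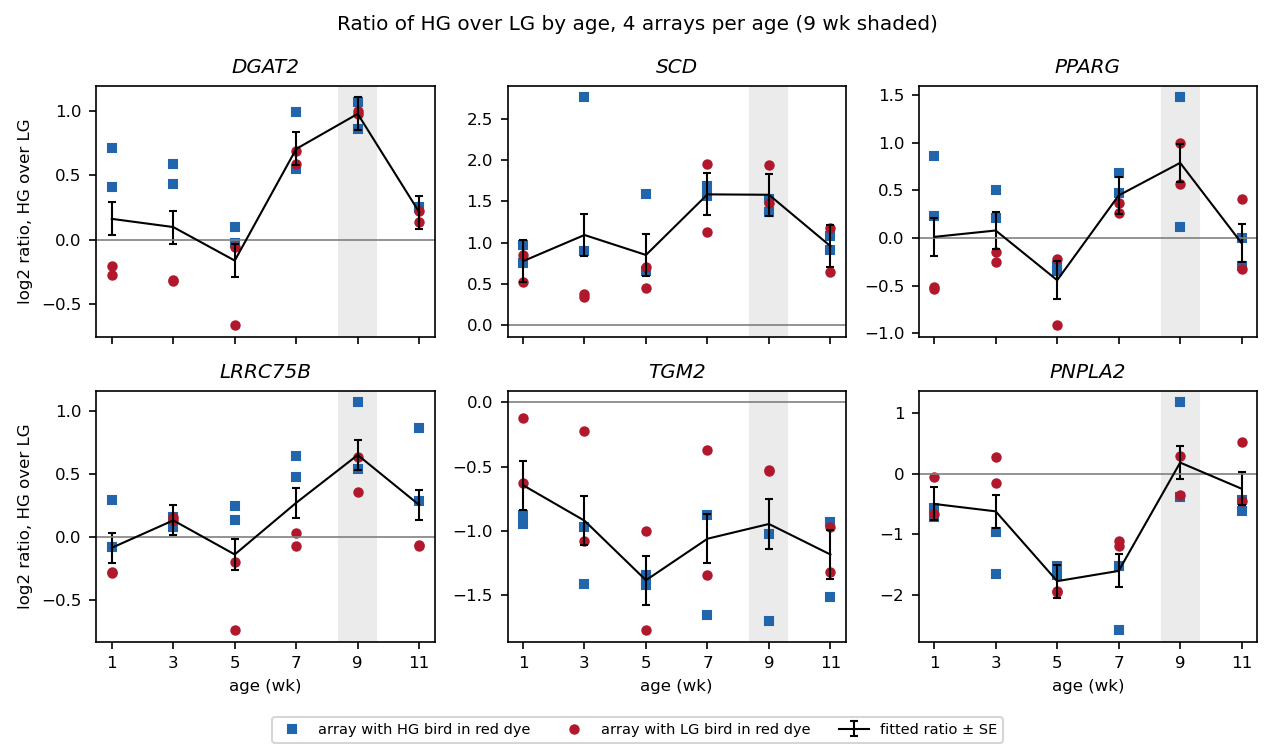
Log2 ratio of HG over LG (vertical axes, each panel with its own scale) against age in wk for 6 genes, with squares and circles for single arrays by dye orientation and a line for the fitted ratio ± SE, with 9 wk shaded. DGAT2, PPARG and LRRC75B have their highest fitted ratio at 9 wk, at 0.98, 0.79 and 0.65, and TGM2 is negative at all 6 ages. PNPLA2 is at 0.18 at 9 wk, against -1.77 at 5 wk, -1.61 at 7 wk and -0.25 at 11 wk.

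Genes that were called at other ages gave a second view of 9 wk, since those arrays held other birds. Of 9 genes called higher in HG at 7 wk (0.146% of the genes tested), 9 were positive at 9 wk, where their median ratio was 0.66. Besides DGAT2 and SCD these included FASN, the fatty acid synthase, at 0.32 (SE 0.13) over probes at 0.70 and -0.05, and UQCRB, a subunit of respiratory complex III, at 0.66 (SE 0.17). Of 5 genes called lower at 7 wk (0.0809%), 4 were negative at 9 wk with a median over the 5 of -0.45, and of 4 called lower at 11 wk (0.0647%), 4 were negative with a median of -1.04. Of 23 genes called lower in HG at 5 wk (0.372%), 14 were negative at 9 wk, and their median was -0.14 at 9 wk, where over all genes 54.7% of ratios were above 0. The sets of lower genes overlap. TGM2 was in those of 5, 7 and 11 wk, TIMP4 in those of 5 and 11 wk and MED27 in those of 7 and 11 wk. PNPLA2 and SLCO2A1 were in those of 5 and 7 wk. Genes of all sets were chosen by their values at the other age, so no test was made.

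PNPLA2, the adipose triglyceride lipase that begins the breakdown of stored fat, was the gene called lower at 7 wk that was not negative at 9 wk. It had log2 ratios of 0.30, -0.39, -0.36 and 1.18 on the 4 arrays of 9 wk, which spread to both sides of 0. Its fitted ratio at 9 wk was 0.18 (SE 0.27), and without array 4 it was -0.24. At 5 wk it was -1.77 and at 7 wk -1.61, against -0.50, -0.62 and -0.25 at 1, 3 and 11 wk. HG was higher on 2 of the 20 arrays of the other ages. The difference of 9 wk from the other ages was 1.13 (SE 0.30, limma adjusted p = 0.626) and did not pass. PNPLA2 was singled out after its values had been seen.

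Among genes of fatty acid synthesis and desaturation, 1 of 21 measured members passed, SCD, and 15 of 21 (71.4%) were positive with a median ratio of 0.13, beside 54.7% and a median of 0.02 over all 6183 genes. HG was higher on all 4 arrays for 5 members, against 4.72% of all genes. FADS2, the desaturase that starts the synthesis of long polyunsaturated fatty acids, stood at 1.13, 0.28, 1.04 and 0.51, with a fitted ratio of 0.74 (SE 0.17, limma adjusted p = 0.145) over 5 probes of 1 sign. The other 3 were ME3, a mitochondrial malic enzyme (0.56), SLC25A1, the citrate carrier that brings acetyl units out of mitochondria (0.35, SE 0.15), and FASN. FASN was at -0.04 on array 1 with the dye coefficient removed. SREBF1, the transcription factor of lipogenic genes, had a ratio of 0.30 (SE 0.09) and was negative on array 3. It was positive on every array with the dye coefficient removed, at 0.14 on array 3. The early enzymes ACLY, which cleaves citrate, and ACACA, which makes malonyl-CoA, stood at 0.01 and 0.11, each higher in HG on 2 of 4 arrays, and the probes of ACLY differed in sign (0.25 and -0.23). FADS2, ME3, SLC25A1, SREBF1, ACLY, ACACA and FASN did not pass and were named after their values had been seen.

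Among genes of triglyceride and glycerolipid assembly, 1 of 22 passed, DGAT2, and 16 of 22 (72.7%) were positive with a median of 0.15. CDS2, which makes the CDP-diacylglycerol used for phosphatidylinositol, had ratios of 1.27, -0.32, 1.05 and 0.60. Array 2 stood apart from the other arrays in sign, and the fitted ratio was 0.65 (SE 0.13, limma adjusted p = 0.0638). With the dye coefficient removed the ratios were 0.95, 0.0008, 0.73 and 0.92, so array 2 was near 0 and not negative. Without array 2 the ratio was 0.88 and passed (adjusted p = 0.00228). CDS2 also passed with array weights and with probes measured on all 24 arrays. The acyl-CoA synthetase ACSL3 (0.45, SE 0.26) and the phosphatidate phosphatase LPIN1 (0.14, SE 0.08) were higher in HG on 4 of 4 arrays. In this list 3 members, with DGAT2, were higher and 1 lower on all 4 arrays, beside 4.72% and 3.93% of all genes. GPAM, the mitochondrial enzyme of the first acylation step, had -0.07, 2.32, -1.69 and 1.82, which split by dye orientation and left a fitted ratio of 0.59 with an SE of 0.75. CDS2, ACSL3, LPIN1 and GPAM were named after their values had been seen, and none of them passed.

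Of 8 measured genes of lipolysis and lipid droplets, 0 passed in limma (2 had an unadjusted p under 0.05), 6 were positive and the median was 0.23. ABHD3, a phospholipase that removes medium-length acyl chains from phosphatidylcholine in mammals, had 1.66, 1.31, 0.20 and 1.62, with array 3 well below the other 3 arrays. Its fitted ratio was 1.20 (SE 0.26, adjusted p = 0.089), and at 7 wk, where it was called, it was 1.55. Its 2 probes stood far apart, at 2.20 and 0.19 at 9 wk and at 2.99 and 0.12 at 7 wk. Without array 3 of 9 wk it passed (1.53, adjusted p = 0.0373), and it also passed with a dye coefficient for each age. The lysosomal lipase LIPA stood at 0.41 (SE 0.15, adjusted p = 0.512) over 2 probes that differed in sign, at 0.93 and -0.11. The droplet coat proteins PLIN1 and PLIN2 had ratios of 0.26 (SE 0.17) and -0.38 (SE 0.25), with HG lower on all 4 arrays for PLIN2. PLIN1 and PLIN2 were named after their values had been seen.

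PPARG had log2 ratios of 1.00, 0.11, 0.57 and 1.48 at 9 wk, all above 0 with array 2 close to it. Array 2 was at -0.05 with the dye coefficient removed. The fitted ratio was 0.79 (SE 0.20, limma adjusted p = 0.19), against 0.45 at 7 wk and -0.05 at 11 wk, and it passed without array 2 (1.09, adjusted p = 0.0185). The difference from the other ages was 0.78 (SE 0.22, adjusted p = 0.626). LRP1, an endocytic receptor for lipoprotein remnants, had 0.32, 0.44, 0.67 and 0.99 with a fitted ratio of 0.61 (SE 0.12, adjusted p = 0.0638). These are 2 of the 22 measured adipocyte regulators and genes of lipid uptake, of which 0 passed in limma (3 were higher and 1 lower at an unadjusted p under 0.05), 15 were positive and the median was 0.08. The fatty acid transporter CD36 (0.60, SE 0.28) was positive on 3 arrays. The fatty acid binding protein FABP4 had 0.66, -1.11, 0.43 and -0.89, positive with the LG bird in red and negative with the HG bird in red. CD36 and FABP4 were named after their values had been seen. LRP1 passed without array 1 of 5 wk (adjusted p = 0.0444). It also passed with probes measured on all 24 arrays and with a dye coefficient for each age.

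Over 14 adipocyte marker genes, which include DGAT2, SCD, FASN and PPARG named above, 11 were positive and 3 negative, with a median of 0.20. Their median was 0.61 on the arrays with the LG bird in red and 0.08 on those with the HG bird in red. RBP7, a retinol-binding protein of adipocytes, was on the negative side at -0.26, -0.44, -0.43 and -0.51 (fitted -0.41, SE 0.13, limma adjusted p = 0.428). RBP7 was named after its values had been seen.

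**Figure D4:**
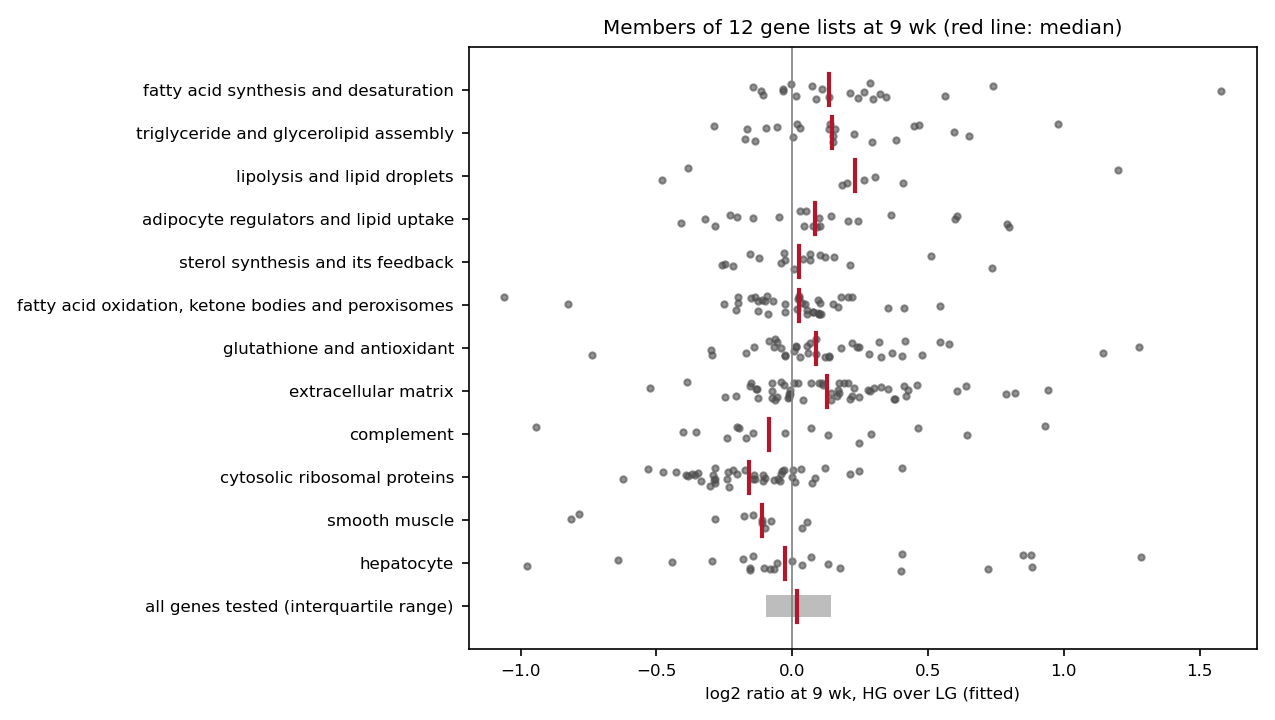
Fitted log2 ratio of HG over LG at 9 wk (horizontal axis) of every measured member of 12 gene lists, 1 point per gene, with a red line at each list's median, and at the bottom the median and the interquartile range of all 6183 genes tested. SCD at 1.58, DGAT2 at 0.98 and ABHD3 at 1.20 are the highest points of the lists of fatty acid synthesis, triglyceride assembly and lipolysis, and the median of the cytosolic ribosomal proteins lies at -0.16.

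LRRC75B, a leucine-rich repeat protein, had 0.64, 0.54, 0.36 and 1.07 (fitted 0.65, SE 0.12, limma adjusted p = 0.0599). FGFRL1, a receptor that binds fibroblast growth factors without a kinase domain, had 0.28, 0.81, 0.87 and 1.25 (fitted 0.80, SE 0.15, adjusted p = 0.0638). Array 4 was the highest in both genes. CDK2AP1, which binds the kinase CDK2, had 0.91, -0.18, 1.01 and 0.33 (fitted 0.52, SE 0.10, adjusted p = 0.0638) and was called at 7 wk. SH3BGRL had 1.28, -0.23, 1.20 and 0.51 (fitted 0.69, SE 0.14, adjusted p = 0.0638). Array 2 was the negative one in both, and both were named after their values had been seen. CDK2AP1 was at 0.06 on array 2 with the dye coefficient removed. WDR76 had 3.44, 1.18, 0.89 and 1.93, with array 1 far above the rest (fitted 1.86, SE 0.39, adjusted p = 0.0808), and at the other ages it was between -0.95 and 0.56. After removal of the dye coefficient its values were 2.97, 1.66, 0.41 and 2.41, and array 3 was the farthest from the others. ARL6IP5, a membrane protein of the endoplasmic reticulum, was at 0.78 (SE 0.17) and was called at 7 wk (0.95). NFASC, a cell adhesion protein, was at 0.78 (SE 0.17). NBAS, which acts in transport between Golgi and endoplasmic reticulum, was at 0.84 (SE 0.18). ARL6IP5, NFASC and NBAS had adjusted p-values of 0.0808 to 0.089 and were higher on 4 of 4 arrays. Single arrays or the processing decided several of these. With probes measured on all 24 arrays LRRC75B, FGFRL1, CDK2AP1 and SH3BGRL passed. With a dye coefficient for each age LRRC75B, FGFRL1 and CDK2AP1 passed. Centring on printing blocks passed FGFRL1, CDK2AP1 and SH3BGRL, and array weights passed LRRC75B and CDK2AP1. LRRC75B passed without array 2 of 9 wk (0.77, adjusted p = 0.0157), array 2 of 3 wk (0.0496), array 1 of 5 wk (0.0159) or array 2 of 11 wk (0.0258). FGFRL1 passed without array 1 of 9 wk (0.98, adjusted p = 0.0352), array 2 of 3 wk (0.0496) or array 1 of 5 wk (0.0292), CDK2AP1 without array 2 of 9 wk (0.68, 0.00611) or array 1 of 5 wk (0.0292), SH3BGRL without array 2 of 9 wk, NFASC without array 1 of 5 wk (0.0171) and WDR76 without array 3 of 9 wk (2.37, 0.028).

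On the lower side 0 of 6183 genes passed in limma, while 169 (2.73%) had an unadjusted p under 0.05 and 243 (3.93%) were lower in HG on all 4 arrays. TGM2, the transglutaminase that cross-links proteins, had -0.53, -1.02, -0.54 and -1.70 at 9 wk, with a fitted ratio of -0.95 (SE 0.19, adjusted p = 0.0638). It was lower in HG on all 20 arrays of the other ages, where the mean of the 5 ratios was -1.04. MED27, a subunit of the Mediator complex, had -2.28, -3.12, -2.55 and -1.38 (fitted -2.33, SE 0.50, adjusted p = 0.0808), against a mean of -2.06 at the other ages. Neither gene differed at 9 wk from the other ages beyond its SE (0.09, SE 0.21 for TGM2 and -0.27, SE 0.54 for MED27). TGM2 passed without array 1 of 5 wk (adjusted p = 0.0301), with centring on printing blocks and with probes measured on all 24 arrays.

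The other genes of the lower side had adjusted p-values of 0.19 to 0.364. TIMP4, an inhibitor of matrix metalloproteinases, had -1.55, -0.98, -0.48 and -1.50 (fitted -1.13, SE 0.32), and C4A, a complement component, -0.78, -1.28, -0.22 and -1.50 (fitted -0.94, SE 0.24). Their means over the other ages were -1.21 and -0.56. TIMP4 was called lower at 5 wk (-1.81) and 11 wk (-2.10), and C4A at 5 wk (-1.15). C4A passed without array 1 of 5 wk (limma adjusted p = 0.00949). The corepressor RCOR1 (-1.15, SE 0.28), the phospholipase PLA2G6 (-0.60, SE 0.18) and the cartilage matrix protein CILP (-0.58, SE 0.18) had means of -0.03, 0.10 and -0.04 over the other ages, where single ages ranged from -0.30 to 0.34 for RCOR1, from -0.19 to 0.56 for PLA2G6 and from -0.31 to 0.32 for CILP. The 2 probes of CILP had fitted ratios of -1.02, with no value on array 1, and -0.13. RCOR1 turned to 0.13 when probes only had to be measured at 9 wk, and PLA2G6 turned to 0.05 with 1 probe per gene and with probes measured on all 24 arrays. DCAF4L2 (-0.40, SE 0.11) had the tightest values, from -0.32 to -0.48, and PRXL2A, a redox protein, was at -0.60 (SE 0.17). HSPD1, the mitochondrial chaperonin, stood at -0.43 (SE 0.12) over 2 probes that differed in sign, at -0.90 and 0.03.

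At the level of probes 19 of 16895 passed (0.112%), 16 higher (0.0947%) and 3 lower (0.0178%) in HG. Of the 19 probes 8 carried a symbol, for 7 genes, and 11 had no symbol listed. Over all 16895 probes tested, 9945 carried a symbol. The count was 44 without array 2 of 9 wk, 36 without array 1 of 5 wk, 0 with scaled arrays, 0 with the 9 wk arrays alone and 160 with array weights (115 higher and 45 lower). Besides DGAT2, SCD, LRRC75B, FGFRL1 and HSPD1, the named genes were PHGDH and ALG6. PHGDH, the first enzyme of serine synthesis, had 1 called probe at 1.30, 1.91 and 2.82 on 3 arrays (fitted 2.03, SE 0.33), with no value on array 3. Its other 2 probes had fitted ratios of 0.55 and 0.58, both negative on array 3, and the gene did not pass (0.77, SE 0.50, adjusted p = 0.79). ALG6, a glucosyltransferase of N-glycan assembly, had probes at 1.00 and -0.12 and did not pass as a gene (adjusted p = 0.35).

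The probes without a symbol held the largest ratios of the called set. The highest had 5.11, 3.00, 4.17 and 4.81 at 9 wk, a fitted ratio of 4.27 (SE 0.50, limma adjusted p = 0.000281) and 19.3-fold more signal in HG, and the next had 4.39, 2.93, 4.11 and 4.29, a fitted 3.93 (SE 0.47, adjusted p = 0.000314). Both were above 0 on all 20 arrays of the other ages, at means of 3.26 and 3.07. The lowest had -4.62, -1.10 and -2.49 on 3 arrays with no value on array 4 (fitted -2.62, SE 0.41, adjusted p = 0.0129), against a mean of 0.07 at the other ages, and the other lower one had -2.88, -1.47, -2.63 and -1.95 (fitted -2.23, SE 0.31, adjusted p = 0.00474). The lowest lost its call without array 1 (-1.80, adjusted p = 0.0811). All 4 lost it with scaled arrays and with the 9 wk arrays alone, and the lowest also with a dye coefficient for each age (adjusted p = 0.0502).

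Outside lipid metabolism 0 members of any list passed, and lists differed in how their members lay around 0. Of 44 cytosolic ribosomal proteins 35 were negative and 9 positive. Their median was -0.16, against -0.05 at 7 wk, -0.12 at 11 wk and 0.03 for the mean of all other ages. Of them 10 had an unadjusted p under 0.05, all lower in HG, where 2.73% of all genes were lower at that threshold. Among the 10, RPL35 had -0.44, -0.15, -0.35 and -0.20 (fitted -0.29, SE 0.09, limma adjusted p = 0.364) and RPL5 -0.23, -0.62, -0.13 and -0.74 (fitted -0.43, SE 0.14, adjusted p = 0.428). The median of the list was 0.03 on the arrays with the LG bird in red and -0.49 on those with the HG bird in red. On all 4 arrays 6 members were lower in HG, beside 3.93% of all genes. Of 33 mitochondrial ribosomal proteins 19 were negative, with a median of -0.06. The 2 of largest moderated t were positive, MRPS15 at 0.62 (SE 0.19) and MRPL13 at 0.46 (SE 0.16), and neither passed.

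Of 56 genes of the extracellular matrix 35 were positive and the median was 0.13. On all 4 arrays 6 members were higher and 4 lower in HG, beside 4.72% and 3.93% of all genes. The 6 higher ones included the 3 chains of collagen VI, COL6A1 (0.43, SE 0.14), COL6A2 (0.38, SE 0.17) and COL6A3 (0.42, SE 0.33), and CCDC80, a secreted matrix protein (0.94, SE 0.36). The member of largest moderated t was negative: COL22A1 had -0.65, 0.27, -0.85 and -0.33 (fitted -0.39, SE 0.12, limma adjusted p = 0.415). The list's median was 0.46 with the LG bird in red and -0.06 with the HG bird in red. Among 39 genes of glutathione and antioxidant defence 27 were positive with a median of 0.09, and the membrane glutathione transferase MGST1 had 1.07, 0.87, 0.75 and 2.41 (fitted 1.28, SE 0.30, limma adjusted p = 0.139). Array 4 held the highest MGST1 value by a wide margin. COL6A2, COL6A3 and CCDC80 were named after their values had been seen.

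Genes of energy metabolism lay close to the median of all genes. Fatty acid oxidation, ketone bodies and peroxisomes had a median of 0.03 over 41 genes, glycolysis and glycogen 0.02 over 29, the citrate cycle and pyruvate dehydrogenase 0.03 over 21, and nuclear genes of respiratory complex I 0.09 over 20. PEX16, which inserts peroxisomal membrane proteins, had 0.07, -1.56, -0.92 and -1.83 (fitted -1.06, SE 0.28, limma adjusted p = 0.203). It averages probes at -1.95 and -0.17, and with 1 probe per gene it was -0.17 at 9 wk and differed from the other ages by -0.15. UGP2, which makes UDP-glucose for glycogen, had 0.41, 0.14, 0.39 and 0.65 (fitted 0.39, SE 0.10, adjusted p = 0.19) over probes at 0.73 and 0.06, and OGDH, a citrate cycle enzyme, was at 0.69 (SE 0.24) with array 2 negative, and passed without that array (1.11, adjusted p = 0.0257), while without array 4 it was 0.30 (adjusted p = 0.983). Sterol synthesis had a median of 0.02 over 18 genes. HSD17B7, which acts in both sterol and oestrogen synthesis, had the largest moderated t of these at 0.51 (SE 0.17), over 3 probes at 1.47, 0.29 and -0.22.

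Lists of immune and plasma protein genes had medians just below 0. Interferon response and MHC class I genes had a median of -0.04 over 20 genes, with MX1, an antiviral GTPase, at -0.26, -1.04, -1.45 and -0.26 (fitted -0.75, SE 0.30), and B2M, which pairs with the heavy chain of MHC class I, at -0.69 (SE 0.26). Complement genes had a median of -0.09 over 16, of which 3 were higher and 1, C4A, lower at an unadjusted p under 0.05. The gene listed as C4 had 0.64, 0.55, 0.45 and 0.22 (fitted 0.46, SE 0.17, limma adjusted p = 0.512), opposite in sign to C4A, and like C4A it passed without array 1 of 5 wk (adjusted p = 0.0301). The median was -0.06 over 14 coagulation genes. Among 24 hepatocyte markers 12 were positive, the median was -0.03, and the list's median for the mean of the other ages was -0.32. At 7 wk the hepatocyte median was -0.35 and at 11 wk -0.01. The acute-phase protein ORM1 had a fitted 9 wk ratio of 0.72 (SE 0.40) with all 4 arrays above 0, the haem-binding protein HPX one of 0.40 (SE 0.22) with 2 arrays above 0, and albumin (ALB, named after its value had been seen) one of -0.18 (SE 0.68). These array counts keep the dye offset. With the dye coefficient removed ORM1 was at -0.10 on array 1, and HPX was above 0 on every array, from 0.03 to 0.95. Smooth muscle markers had 9 of 11 members below 0, with MYL9 (0.01, -1.48, 0.17 and -1.85) and MYH11 (0.34, -2.08, 0.28 and -1.80) near 0 on the arrays with the LG bird in red and low on those with the HG bird in red. Both genes were below 0 on every array once the dye coefficient was removed. MYL9 then ranged from -1.34 to -0.34 and MYH11 from -1.22 to -0.52. Leukocyte and endothelial markers had medians of -0.01 each over 16 and 18 genes, erythrocyte markers of -0.02 over 6, skeletal muscle markers of 0.08 over 20, and fibroblast and mesothelial markers of 0.19 over 11. The part of cell makeup in the line difference was not tested.

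The remaining lists held 0 called members in limma and had medians near 0. They were translation factors (0.01 over 43 genes), the proteasome (0.01 over 34), the cell cycle and DNA replication (-0.03 over 44), chaperones of the endoplasmic reticulum (-0.02 over 23), cytosolic and mitochondrial heat shock proteins (0.0034 over 22) and the insulin-like growth factor axis (0.03 over 11). Genes of steroid, thyroid and prostaglandin handling stood at -0.02 over 23, with the prostaglandin transporter SLCO2A1 at -0.10, -0.65, -0.36 and -0.67 (fitted -0.45, SE 0.15, adjusted p = 0.465). SLCO2A1 was called lower at 5 wk (-1.13) and 7 wk (-0.88). Matrix remodelling had a median of 0.06 over 20 genes, with the protease CTSB at 0.82, 0.24, 0.65 and 0.45 (fitted 0.54, SE 0.14, adjusted p = 0.19, with 1 of 5 probes negative), which passed without array 1 of 5 wk (adjusted p = 0.0427). Angiogenesis and hypoxia genes had 9 of 12 members below 0 and a median of -0.10. Respiratory complexes II to IV stood at -0.0016 over 16 genes, ATP synthase at 0.03 over 10, MHC class II at -0.0030 over 3, and the markers of pancreas and of gut epithelium at -0.02 and -0.03 over 4 each.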

How the data were processed

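The authors scanned the arrays with a GenePix scanner and GenePix Pro software, removed poor spots by hand and describe LOWESS normalization for their own tests. The deposited values are log2 ratios, red over green for each spot, and their medians differed between arrays (-0.16 to 0.232 at 9 wk), so they do not appear to be LOWESS-normalized. Intensities were not used here, and the number of arrays limits the precision. Of 19200 spots per array, 10601 had 1 symbol in the platform's annotation, whose spot identifiers were read with their last 2 numbers exchanged, an order taken from the data: annotated spots were then missing on 0.621 arrays on average, against 1.84 for unannotated ones, while in the order as given the averages were 1.12 and 1.22. Every gene name rests on this order. Values with no ratio and values above 16.6, the ceiling of the software, were set to missing. Each array was centred on its median and turned to HG over LG. A probe needed values on 3 or more arrays of every age, which 16895 had (9945 of them named), and the probes of a symbol were averaged, which gave 6183 genes, 2538 with several probes. STUB1, listed at 95 spots, was left out.

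Linear models were fitted to all 24 arrays with limma 3.58.1 in R 4.3.3 (lmFit and eBayes). There was a coefficient for each of the 6 ages and 1 for the dye. The 9 wk coefficient was tested against 0 and against the other ages, with Benjamini-Hochberg adjustment over all features and a threshold of 0.05. SE is that of the model. The 8 birds were separate animals picked at random within each line. The fit was tested on simulated data with the same spread at every age, which did not test the wider scatter at 9 wk. Named genes were those past the threshold or, where fewer than 10 passed in a direction, those of largest moderated t with 1 sign on all arrays. The 3 of largest t in each direction against the other ages and the 2 largest unnamed probes in each direction were added. From each list, called members or the 2 of largest t were eligible, and not all of these are given in the text. Genes singled out after their values had been seen are marked as such. The comparison, the 28 gene lists and the 10 marker lists were chosen with earlier results of these data known. Lists were counted and not tested as sets.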

Additional observations from a re-analysis of the deposited data

Results flagged for a closer look

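Values in 105 groups of 4 arrays of 9 wk were checked for a single array far from the others by Dixon's ratio. Gene and probe ratios had the dye coefficient removed, and a few groups were measures of the arrays, such as missing spots and spread, taken as they were. The ratio was above the 95% critical value for 4 arrays in 4 groups, and chance alone gives about 1 in 20. TGM2 was at -1.50 on array 4, where the nearest other array was at -0.82. COX7C, a subunit of cytochrome c oxidase, was at 0.030 on array 2, with the nearest other at -0.44. UGP2 was at 0.74 on array 4, with the nearest other at 0.31. SLCO2A1 was at -0.64 on array 3, with the nearest other at -0.39.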

How the results depend on the processing

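The main counts at 9 wk were 19 probes and 2 genes. They were 29 probes and 6 genes with centring on printing blocks, 0 and 0 with arrays scaled to 1 spread, 0 and 0 with the 9 wk arrays alone, 160 and 5 with array weights, 18 and 9 with features measured on all 24 arrays, and 36 and 8 with a dye coefficient for each age. Against the other ages the count of genes was 0 throughout except 1 with a dye coefficient for each age, and that of probes was 0 except 1 with printing blocks, 2 with array weights and 6 with a dye coefficient for each age. Dye coefficients per age and the removal of values at small whole-number ratios were chosen after seeing the data. Leaving out 1 array gave 13 to 44 probes and 1 to 18 genes at 9 wk, and 0 to 2 probes and 0 genes against the other ages. With the replicate block the counts were 14 probes and 2 genes at 9 wk and 0 against the other ages, and DGAT2 and SCD kept their calls (adjusted p of 0.00775 and 0.0423). Residuals of the same replicate number at different ages correlated at -0.063 on average over 60 pairs, and 6 were above 0.1. The average was -0.106 for other pairs of the same dye orientation and 0.085 for pairs of opposite orientation. Fitting age and dye constrains these residuals, so the averages cannot decide whether replicate numbers pair the birds. Without centring, the median ratio of all genes was 0.11, and 74.4% of genes were above 0, against 54.7%.

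Single directions turned as follows. CELA1 was 0.0625 without centring. PLA2G6 was 0.051 with features on all 24 arrays. With 1 probe per gene PLA2G6 was also 0.051, HSPD1 was 0.032, BLB1 -0.060, IGF2BP3 -0.16 and ALG6 -0.12. RCOR1 was 0.13 at 9 wk, and 0.25 against the other ages, with the filter on 9 wk alone. Leaving out 1 array gave SPTB -0.27 to 0.028, CELA1 -0.20 to 0.14, EPCAM -0.16 to 0.18 and PNPLA2 -0.24 to 0.44. The cause was not tested, beyond the fewer probes averaged with 1 probe per gene. Of the values of named genes and probes, 1440 under other settings and 2539 with 1 array left out kept their direction and side of the threshold, while 13 and 4 lost a call and 18 and 20 gained one. Signal over background is unknown, so dim probes were not told apart.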
